A study of Mus musculus with 4 samples.

Results

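Type I interferon and double-stranded RNA response genes were followed in C2C12 cells, a mouse myoblast line, after knockdown of Fxr1, which encodes the RNA-binding protein FXR1P. Of 40 genes named for this set, 39 had a probe on the array, with 48 of its 55681 probes, and Ifi27 had none under that name. They were taken as 9 sensors, 10 signalling factors, 16 effectors and 4 genes of antigen processing. There were 4 one-colour arrays. The siFxr1 group had 2 cultures of C2C12 transfected with an siRNA against exon 14 of Fxr1, and the siControl group had 2 cultures transfected with a commercial random siRNA of similar GC content. Both groups thus received double-stranded RNA in a cationic lipid reagent, and RNA was taken 48 hours after transfection. Each group had 1 culture in experiment 1 and 1 in experiment 2. An experiment was also a slide, so culture and slide cannot be told apart. Untransfected cells were not analysed here.

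Cells that meet double-stranded RNA detect it with receptors such as RIG-I (Ddx58), MDA5 (Ifih1) and Toll-like receptor 3 (Tlr3), and respond by making interferon beta. Secreted interferon binds the receptor chains encoded by Ifnar1 and Ifnar2 and activates a complex that holds STAT2 and IRF9, which enters the nucleus and binds interferon-stimulated response elements in promoters. The genes so activated include the ubiquitin-like protein gene Isg15, the Ifit genes, whose products bind foreign RNA, the Mx GTPases and the oligoadenylate synthetases, along with the sensors themselves. Transfected siRNA is known to be able to start this response, to an extent that varies with its sequence, length and dose.

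The siRNA used for Fxr1 is shown because it is the double-stranded RNA that the siFxr1 cultures received. It is listed with 24 nucleotides, and an effect of its sequence or length was not tested. The sequence of the control siRNA was not used here.

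siFxr1, 5′ to 3′: gcaauccauacagcuuacuugaua

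The promoters of the set were searched for the interferon-stimulated response element, which describes the genes and not these arrays. The genes were named for a response that acts through this element, so a high share of matches follows in part from that choice. RefSeq promoters (GRCm38.p6, 250 bases before to 50 after the start) were matched by symbol for 33 of the 40 genes and searched on both strands for GAAANNGAAA, the core of the interferon-stimulated response element, with overlapping matches counted once per gene. It was found in 14 of the 33, against 3.99% of all gene symbols and 3.44% of all 32851 promoters. The 14 were 6 of 7 sensors (Ddx58, Ifih1, Eif2ak2, Oas1a, Oas1g and Oas3), 6 of 13 effectors (Isg15, Ifit1, Ifit3, Rsad2, Bst2 and Ifitm3), Stat2 among 9 signalling factors, and B2m among 4 genes of antigen processing. Windows of 26 bases are shown for 6 genes whose signals are described in detail and for B2m, which was well above background on every array. Capitals mark the match, read along the strand of the gene, so that a match on the opposite strand begins with TTTC.

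Isg15, chr4:156200873-156200898, minus strand: aggaaaagGAAACCGAAAcagaaaat
Ifit1, chr19:34640796-34640821, plus strand: agtctcagTTTCAGTTTCtcactgct
Ifit3, chr19:34583399-34583424, plus strand: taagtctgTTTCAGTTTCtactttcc
Rsad2, chr12:26456555-26456580, minus strand: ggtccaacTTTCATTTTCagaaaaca
Bst2, chr8:71537579-71537604, minus strand: aggaaaatGAAACTGAAAggctgcag
Oas1a, chr5:120907528-120907553, minus strand: cttctcggGAAATGGAAActgaaaat
B2m, chr2:122147540-122147565, plus strand: aagaacatGAAACTGAAAatgggaaa

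Counted from the start, the match shown lies at -72 to -63 in Isg15, at -85 to -76 in Ifit1 and at -122 to -113 in Ifit3. The matches of Isg15, Bst2 and Oas1a overlap at least 1 further match in the same promoter. A match of these letters is a description of the window, and was not related to the measurements by a test.

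Fxr1 was measured first, since it checks the labels. Its brighter probe read 13.85 and 13.71 (normalized log2 signal) in the controls of experiments 1 and 2, and 10.15 and 10.77 after siFxr1, so both knockdown cultures were below both controls. The arrays had 45.4% to 52.9% of probes well above background, the mark that the scanner software gives a spot, with the highest share on siFxr1 of experiment 2. RNA integrity numbers were 9 except for the siFxr1 culture of experiment 1, with 8. Of 9 myoblast markers, 8, Myod1, Myog, Des and Cdh15 among them, were well above background on all arrays, and Myf5 was on none. Among 8 immune markers, Ptprc and Emr1 were well above background on no array, and 4 were on all 4. The log2 of their summed signal was 12.88 and 14.25 in the controls of experiments 1 and 2 and 13.26 and 14.20 in the siFxr1 cultures. In experiment 2 most of that sum came from the brightest probe of Itgam, at 13.81 in the control and 13.62 after siFxr1. Of 4 endothelial markers, Kdr and Cdh5 were well above background on all 4 arrays, Pecam1 on 3 and Tek on siFxr1 of experiment 2 alone, and their log2 summed signal was 11.63 and 11.75 in the controls and 12.11 and 11.87 in the siFxr1 cultures.

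Of the 39 genes, 24 were measured, that is, in siFxr1, in siControl or in each, their brightest probe was well above background on both arrays, and 20 were so on all 4 arrays. A further 9 (Ifit1, Mx1, Mx2, Ifi44, Ifih1, Oas1a, Oas2, Usp18 and Psmb9) were well above background on 1 array of 1 or both conditions. The remaining 6 (Ifnb1, Tlr3, Oas1g, Oas3, Psmb8 and Tap1) were on none.

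The set did not move 1 way with knockdown. In experiment 1 most of the measured genes were lower in siFxr1 than in siControl, and in experiment 2 most were higher. Lower signals were seen in 22 of 24 genes in experiment 1, with a median difference of -0.49 (log2, siFxr1 minus siControl), and higher ones in 17 of 24 in experiment 2, with a median of 0.53. Over all 19140 measured genes the medians were 0.05 and 0.00. Of the 24 genes, 2 (Ifitm1 and Irf9) were higher in siFxr1 in both experiments, against 34.1% of all measured genes, and 7 were lower in both, against 29.8%. Another 15 were lower in experiment 1 and higher in experiment 2, against 15.7% of all measured genes, and 0 went the other way, against 20.2%. In 14 of the 24 the highest of the 4 signals was that of siFxr1 in experiment 2, against 20.7% of all measured genes, and in 20 the lowest was that of siFxr1 in experiment 1, against 21.7%. In 4 of the 24 (Oasl1, Parp14, Dhx58 and Irf7) siFxr1 of experiment 1 was not well above background, so that they were kept by their siControl signals. Among the 20 genes well above background on all 4 arrays, 18 were lower in experiment 1 and 13 higher in experiment 2, with medians of -0.45 and 0.37, and 11 did both, against 15.8% of all such genes. These are whole-culture RNA measurements, in which fewer responding cells and less RNA per cell cannot be told apart.

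**Figure D1:**
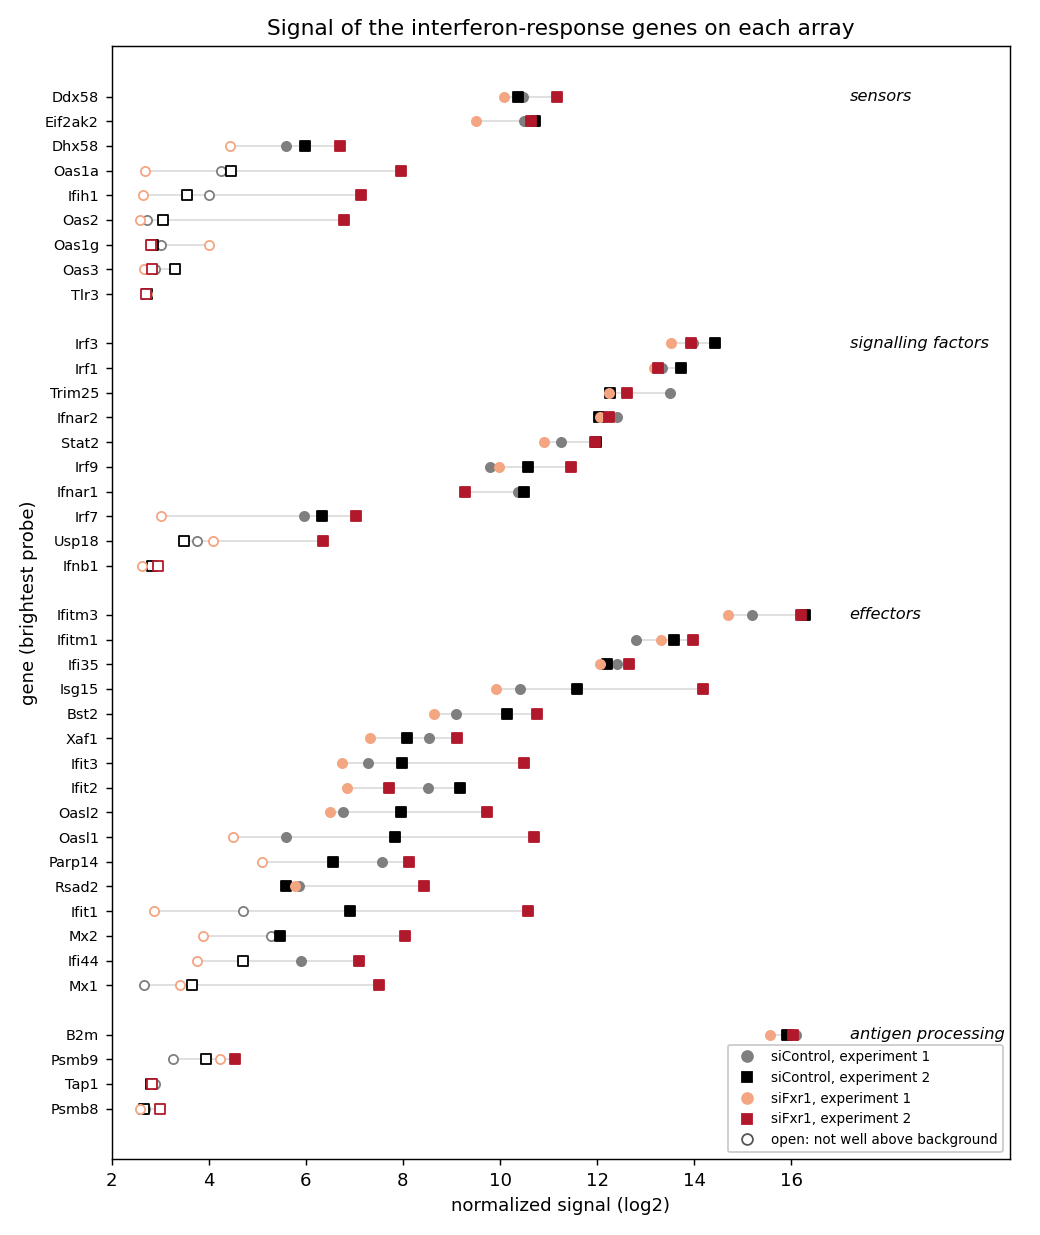
Normalized signal (log2, horizontal axis) of the brightest probe of each of the 39 genes, by role, with grey and black for siControl and orange and red for siFxr1, circles for experiment 1 and squares for experiment 2, and open symbols where the probe was not well above background. The red squares lie to the right of the other 3 arrays for most sensors and effectors, with Ifit1 at 10.57 against 6.91 or less, while Ifit2 and Ifnar1 lie lower on both siFxr1 arrays.

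Most of the genes with a large difference in experiment 2 were effectors, the products that act on viral RNA and proteins. Isg15, the ubiquitin-like modifier that is attached to proteins during the response, read 10.42 in the control and 9.92 after siFxr1 in experiment 1. In experiment 2 it read 11.59 and 14.17. The siFxr1 array of experiment 2 was the highest and stood 5.99-fold above its control (probe at chr4:155573649-155573708, mm9). Ifit3, of the same family as Ifit1, read 7.27 and 6.74 in experiment 1 and 7.98 and 10.50 in experiment 2. Again 1 array was high, with a 5.73-fold difference in experiment 2. Rsad2, which encodes the antiviral enzyme viperin, was flat on 3 arrays, at 5.86, 5.77 and 5.59, and read 8.43 on the siFxr1 array of experiment 2. Its difference in experiment 2 was 7.15-fold.

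Oasl1 and Oasl2 are oligoadenylate synthetase-like genes, the first known as a brake on IRF7 translation. Oasl1 read 5.59 in siControl of experiment 1 and 4.50 in siFxr1, which was not well above background. In experiment 2 it read 7.83 in siControl and was 7.34-fold higher in siFxr1. Oasl2 read 6.78 and 6.50 in experiment 1 and 7.96 and 9.73 in experiment 2. For both genes the 2 arrays of experiment 2 were above the 2 arrays of experiment 1, whatever the siRNA. Ifit1, which binds RNA that lacks the host's cap methylation, was not well above background in either culture of experiment 1, at 4.70 and 2.87, and in experiment 2 it read 6.91 in the control and 10.57 after siFxr1, a 12.6-fold difference.

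Of the 20 genes well above background on all 4 arrays, 5 (Isg15, Ifit3, Rsad2, Oasl2 and Xaf1, all effectors) were at least 2-fold higher in siFxr1 in experiment 2, against 5.41% of all such genes, and 2 (Ifit2 and Ifnar1) were at least 2-fold lower, against 4.52%. In experiment 1, 0 of the 20 were at least 2-fold higher, against 2.62%, and 4 (Ifit2, Ifnar1, Trim25 and Xaf1) were at least 2-fold lower, against 2.98%.

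For the other genes, where a signal was not well above background it was raised to the lowest signal of any probe that was so on that array (4.19 to 5.36), and the fold is then a lower bound. Read this way, 15 of 33 genes were at least 2-fold higher in siFxr1 in experiment 2, against 6.37% of all genes, and 2 were at least 2-fold lower, against 5.84%. In experiment 1 the counts were 0 of 25 higher, against 4.75%, and 5 lower, against 3.93%. Of the 10 genes this added to those higher in experiment 2, Mx1, Ifih1, Oas1a, Oas2 and Usp18 were well above background on siFxr1 of experiment 2 alone and were thus kept by the array on which they were high. The others added were Ifi44, Ifit1, Mx2, Oasl1 and Parp14. Of these, Ifi44 was well above background in experiment 2 on siFxr1 alone, so it too was kept there by its high array. The counts of 15 and 33 therefore describe these genes and are no measure of the set. The same holds for the 5 lower in experiment 1, which include Parp14, well above background there on siControl alone. Mx1, an antiviral GTPase, was well above background on the siFxr1 array of experiment 2 alone, at 7.51, and was at least 7.29-fold higher there than in its control. Mx2 read 8.05 on that array and 5.46 in the control. Ifi44 was well above background at 5.89 in siControl of experiment 1 and at 7.10 in siFxr1 of experiment 2, where it was at least 5.24-fold higher than its control.

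Parp14 is an ADP-ribosyltransferase, and Xaf1 a pro-apoptotic partner of the inhibitor of apoptosis XIAP. Both were at least 2-fold lower in experiment 1 and at least 2-fold higher in experiment 2. They were 2 of 25 genes, against 0.0676% of all genes. Among genes well above background on all 4 arrays it was 1 of 20 (Xaf1), against 0.0337%. Parp14 read 7.58 and 5.10 in experiment 1, where siFxr1 was not well above background and at least 4.66-fold lower, and 6.56 and 8.13 in experiment 2. Xaf1 read 8.53 and 7.32 in experiment 1 and 8.08 and 9.12 in experiment 2, and its second probe was well above background on no array. In both genes the 2 siControl arrays lay between the 2 siFxr1 arrays.

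Bst2, Ifi35, Ifitm1 and Ifitm3 differed by less than 2-fold between the siRNAs in each experiment. Bst2, the tethering factor that holds virions at the cell surface, read 9.10 and 8.64 in experiment 1 and 10.14 and 10.77 in experiment 2. Ifi35 stayed between 12.07 and 12.65 on all 4 arrays. Ifitm3, which blocks viral entry at membranes, read 15.18 and 14.71 in experiment 1 and 16.28 and 16.20 in experiment 2, so it differed by experiment and little by siRNA. Ifitm1 of the same family was the only measured effector higher in siFxr1 in both experiments, by 0.52 and 0.38 (log2).

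**Figure D2:**
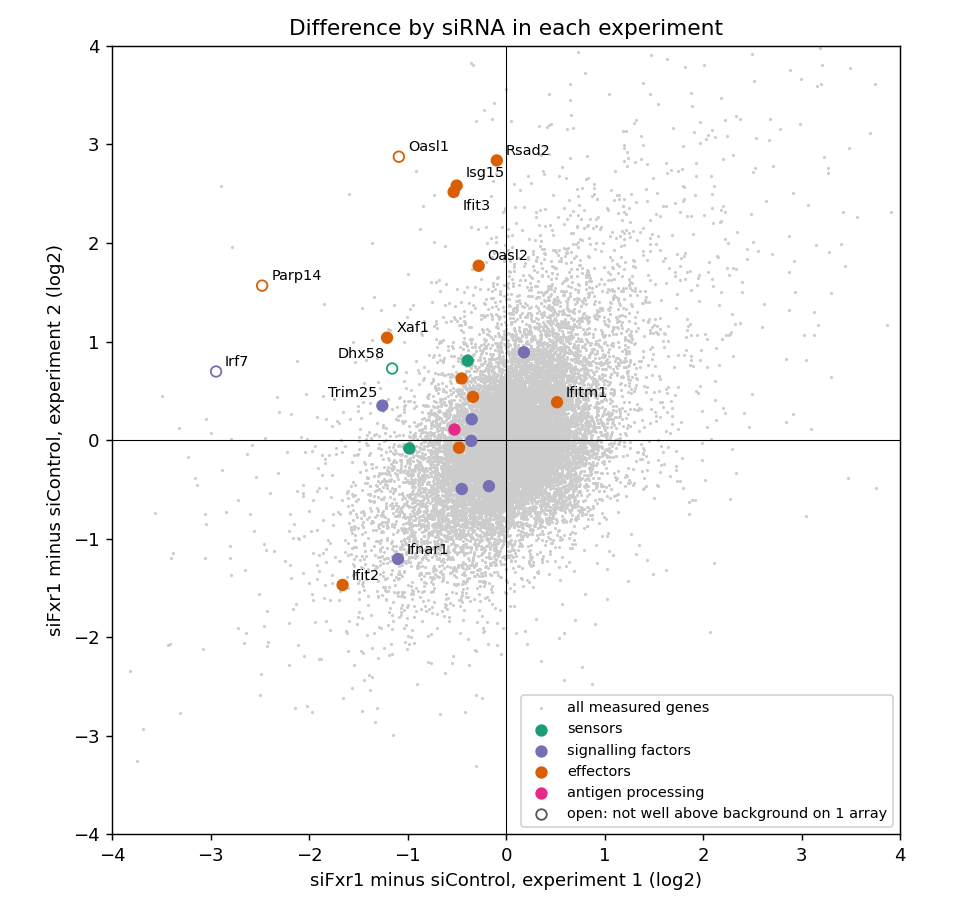
Difference between siFxr1 and siControl (log2) in experiment 1 (horizontal axis) and in experiment 2 (vertical axis) for the 24 measured genes, coloured by role, over all 19140 measured genes in grey, of which 43 lie outside the axes. Open circles are genes not well above background on 1 array. The upper left part holds 15 of the 24 genes, with Oasl1, Rsad2, Isg15 and Ifit3 at the top, and Ifit2 and Ifnar1 lie in the lower left part.

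Only Ifit2 and Ifnar1, of the 24 measured genes, differed at least 2-fold in the same direction in both experiments. Both were lower in siFxr1, against 1.48% of all measured genes, and 0 genes were at least 2-fold higher in both, against 2.11%. Ifit2, an RNA-binding member of the same family as Ifit1 and Ifit3, read 8.51 in the control and 6.85 after siFxr1 in experiment 1, and 9.17 and 7.70 in experiment 2. The siFxr1 arrays were below both siControl arrays, by 3.16-fold and 2.77-fold within the experiments. Between the conditions Ifit2 differed by -1.56 (SE 0.45), with an adjusted p of 0.975 by limma. With the experiment as a block and dim probes left out, the SE was 0.23 and limma gave an adjusted p of 0.0501. Its probe lies at chr19:34650244-34650303 (mm9), beside those of Ifit3 (chr19:34663105-34663164) and Ifit1 (chr19:34723796-34723855), which were higher in siFxr1 of experiment 2.

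Ifnar1, the chain of the interferon receptor that carries the kinase TYK2, read 10.36 and 9.27 in experiment 1 and 10.49 and 9.28 in experiment 2. The 2 siControl arrays were alike, the 2 siFxr1 arrays were alike, and the difference of -1.15 (SE 0.15) had an adjusted p of 0.950 by limma. With the experiment as a block and dim probes left out, limma gave an adjusted p of 0.0825, and of 0.0214 when a trend was also allowed in the variance. Its other probes, both well above background on all arrays, differed by -0.45 and -0.06, so the other two did not share the size seen with the brightest (chr16:91510673-91510732, mm9).

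The 2 probes of Isg15 disagreed. The dimmer one, for which the array's annotation gives chr4:155573533-155573552 (mm9), read 6.89 in the control and 9.47 after siFxr1 in experiment 1, and 7.94 and 10.58 in experiment 2. It was higher in siFxr1 by 2.58 and 2.64, with both siFxr1 arrays above both siControl arrays, whereas the brighter probe differed by -0.50 and 2.58. On the same arrays the 2 probes thus gave opposite signs in experiment 1, and the level of Isg15 in that experiment is uncertain.

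Across all probes, limma called 0 of the 48 member probes at a B value above 0 and 0 at an adjusted p under 0.05, as it called 0% of the 55681 probes by either rule. The brighter probe of Fxr1 itself had an adjusted p of 0.95 in this fit. At an unadjusted p under 0.05 there were 3 of the 48, against 4.96% of all probes, and they were those of Ifit2 and Ifnar1 (lower) and the dimmer probe of Isg15 (higher). With the experiment as a block and dim probes left out, 2 of 28 member probes had a B above 0, against 1.39% of 25540: the dimmer probe of Isg15 (B 3.14, adjusted p = 0.0198) and Ifit2 (B 0.39, adjusted p = 0.0501). An adjusted p under 0.05 was reached by 1 of 28, against 1.1%. With a trend in the variance too, 2 of 28 had a B above 0, against 2.52% of 25540. By adjusted p under 0.05 there were then 3 of 28, against 5.6%. They were the dimmer probe of Isg15, Ifit2 (adjusted p = 0.00919) and Ifnar1 (adjusted p = 0.0214). The difference in effect between the experiments was not tested, since with 1 array per condition in each experiment no residual degree of freedom is left.

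Of the 9 sensors, 3 were measured. Ddx58, which encodes RIG-I, read 10.47 and 10.08 in experiment 1 and 10.37 and 11.18 in experiment 2. Its dimmer probe read 5.60 in the control of experiment 1 and was not well above background after siFxr1, and it read 5.99 and 5.12 in experiment 2, so the direction in experiment 2 depended on the probe. Eif2ak2, the kinase PKR that halts translation when it binds double-stranded RNA, read 10.50 and 9.51 in experiment 1 and 10.73 and 10.64 in experiment 2, with 1 low array, siFxr1 of experiment 1. Dhx58, which encodes the helicase LGP2, read 5.59 and 5.98 in the 2 controls and 6.71 after siFxr1 in experiment 2. It was not well above background after siFxr1 in experiment 1.

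The other sensors were near or below the detection limit except on 1 array. Oas1a and Oas2 make the 2′-5′ oligoadenylates that activate RNase L, and both were well above background on siFxr1 of experiment 2 alone, at 7.95 and 6.78. They were there at least 9.89-fold and at least 4.40-fold higher than in siControl of the same experiment. Ifih1, which encodes MDA5, read 7.14 on that array and was at least 5.63-fold higher than its control, while its second probe was well above background nowhere. Oas1g, Oas3 and the endosomal receptor Tlr3 were not well above background on any array.

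The signalling factors relay the response from sensor to promoter. Ifnb1, the gene of interferon beta, was not well above background on any array, with signals of 2.62 to 2.96. Irf3, the transcription factor that switches on Ifnb1, read 13.97 and 13.52 in experiment 1 and 14.42 and 13.93 in experiment 2, lower in siFxr1 by 0.45 and 0.50 (log2). Irf9, the DNA-binding subunit of the STAT complex, read 9.80 and 9.98 in experiment 1 and 10.58 and 11.47 in experiment 2. It was the only signalling factor measured that was higher in siFxr1 in both experiments.

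Trim25, the ubiquitin ligase of RIG-I, read 13.50 and 12.24 in experiment 1 and 12.27 and 12.62 in experiment 2, so that 1 array, siControl of experiment 1, was high. Irf7, which amplifies interferon production, read 5.97 in siControl of experiment 1, was not well above background in siFxr1, and read 6.33 and 7.03 in experiment 2. Usp18, the protease that removes ISG15 and restrains the receptor, was well above background on siFxr1 of experiment 2 alone, at 6.35, and at least 3.25-fold higher there than in its control. Stat2, Irf1 and Ifnar2 differed by less than 0.5 (log2) in each experiment, with Stat2 at 11.25 and 10.90 in experiment 1 and 11.97 and 11.96 in experiment 2.

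**Figure D3:**
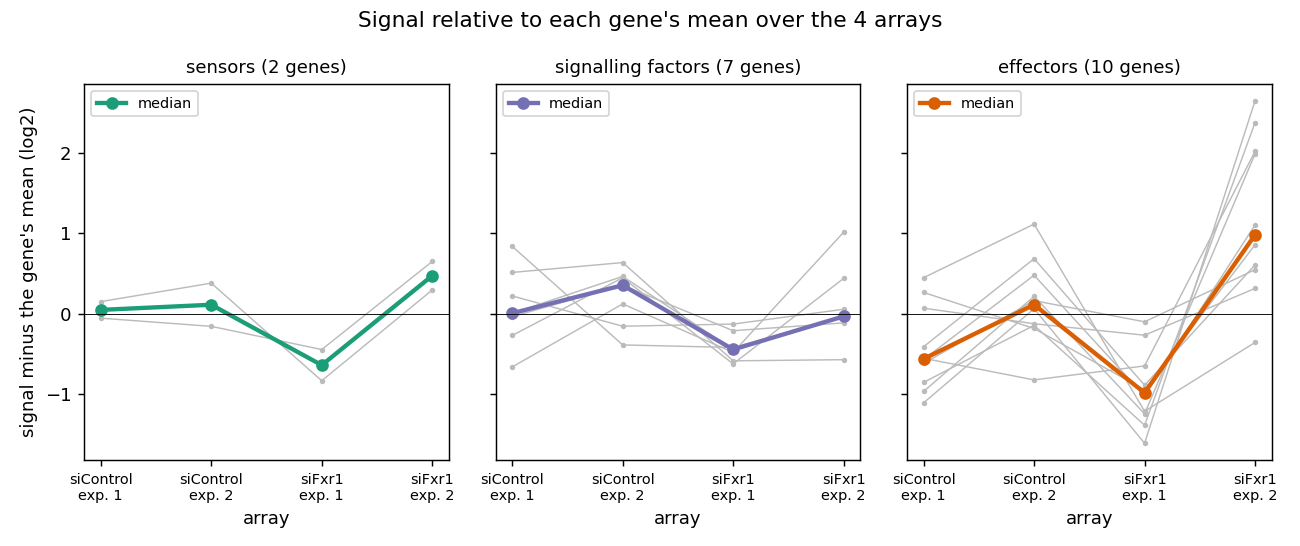
Signal of each sensor, signalling factor and effector minus that gene's mean over the 4 arrays (log2, vertical axis) on each array (horizontal axis), for genes well above background on all 4 arrays, with the median in colour. The median of the 10 effectors was 0.98 on siFxr1 of experiment 2 and -0.98 on siFxr1 of experiment 1, while that of the 7 signalling factors was -0.03 and -0.44. The 2 sensors drawn are Ddx58 and Eif2ak2.

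Of the genes of antigen processing, 1 was measured. B2m, the light chain of class I molecules, read 16.10 and 15.57 in experiment 1 and 15.91 and 16.03 in experiment 2. The immunoproteasome subunit Psmb9 was well above background on siFxr1 of experiment 2 alone, at 4.53, and Psmb8 and the peptide transporter Tap1 were so on no array. By role, over genes well above background on each of the arrays, the median difference in experiment 2 was 0.83 in 10 effectors and -0.01 in 7 signalling factors, and in experiment 1 it was -0.47 and -0.35.

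The cultures of experiment 2 were also compared with those of experiment 1. In both conditions together the measured genes of the set were higher in experiment 2 by a median of 0.82 (log2), against -0.07 over all measured genes. The median was 0.39 in siControl and 1.31 in siFxr1, and 0.42 and 1.08 over the 20 genes well above background on all 4 arrays. At least 2-fold higher signals in experiment 2 in both conditions were found in 5 of 24 genes (Isg15, Oasl1, Oasl2, Bst2 and Ifitm3), against 5.03% of all measured genes, and at least 2-fold lower ones in 0, against 4.99%.

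By limma, 0 of the 48 probes passed a B above 0, against 1.19% of all probes, and 0 passed an adjusted p under 0.05, against 0%. At an unadjusted p under 0.05 there were 10, against 20.1%. When dim probes were left out, 0 of 28 passed a B above 0, against 5.03% of 25540. At an adjusted p under 0.05 there were 7 of 28, against 17%. These were the probes of Bst2 (1.59, SE 0.32, adjusted p = 0.0262), Ifitm3 (1.29), Oasl1 (4.22), Oasl2 (2.20), Irf9 (1.14) and both of Isg15 (2.71 and 1.09), all higher in experiment 2. The value of Oasl1 includes 1 signal that was not well above background. Among the 4 immune markers well above background on every array, Itgam and Cd14 were higher in experiment 2 in both conditions and Cd3e and Csf1r were lower. This holds for the brightest probes. The other probes of Itgam were well above background on siFxr1 of experiment 2 alone. Those of Csf1r differed between the experiments by 0.21 and 0.36 (log2) in siControl and by -0.45 and -0.45 in siFxr1. Itgam read 11.33 and 12.03 in experiment 1 and 13.81 and 13.62 in experiment 2, and Cd3e read 10.52 and 10.60 in experiment 1 and 9.48 and 9.40 in experiment 2. The part of other cell types in these differences was not tested.

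Other genes of the pathway were read from a list of 51, of which 49 were on the array and 45 were measured. Their medians were nearer to 0, at -0.12 in experiment 1 and 0.12 in experiment 2. Of those with an array well above background, 8 of 47 were at least 2-fold higher in siFxr1 in experiment 2, against 6.37% of all genes, and 1 was lower, against 5.84%. In that experiment Trim21 and Cmpk2 were well above background on siFxr1 alone, so they were kept by their high array. The counts of 8 and 47 thus describe these genes and are no measure of the pathway. In experiment 1, 0 of 45 were higher, against 4.75%, and 3 lower, against 3.93%. The largest were the chemokines Cxcl10 and Ccl5, attractants of lymphocytes that are made in the response. Cxcl10 read 7.02 and 6.79 in experiment 1 and 6.13 and 11.44 in experiment 2. Ccl5 read 8.03 and 7.70 in experiment 1 and 9.61 and 13.41 in experiment 2, so both had their high signal on the same array as the effectors.

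The GTPase Igtp, the interferon-induced Rtp4, the antibody receptor Trim21, Tmem173 (STING), Dtx3l and the nucleic acid sensor Zbp1 were the other 6. Their differences in experiment 2 were 2.49, 2.31, at least 2.35, 1.42, 1.40 and 1.10 (log2). The value of Trim21 is a bound, since its control was not well above background. These 8 were chosen after their values were seen. Ikbke, a kinase of IRF3, Ifi203 and Parp9 were the 3 at least 2-fold lower in experiment 1, and the lysosomal thiol reductase Ifi30 was the 1 lower in experiment 2. Their differences in experiments 1 and 2 were -1.01 and -0.94 for Ikbke, -1.21 and -0.89 for Ifi203, -1.48 and 0.11 for Parp9 and -0.88 and -1.13 for Ifi30. At least 2-fold higher signals in experiment 2 in both conditions were found in 2 of the 45 measured, against 5.03% of all measured genes. These were Ccl5 and Irf5, which read 6.01 and 6.71 in experiment 1 and 7.47 and 8.21 in experiment 2.

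The median over the set depended on the siFxr1 arrays. Without siFxr1 of experiment 2 the median difference of the measured genes was -0.90, and without siFxr1 of experiment 1 it was 0.75, against -0.13 with all 4 arrays and 0.03 over all measured genes. The directions given for each experiment are those of the software's background-corrected signal. With the 5 other ways of processing it, 21 to 23 of the 24 genes were lower in experiment 1 and 18 were higher in experiment 2.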

How the data were processed

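RNA of 4 C2C12 cultures was hybridised to 4 one-colour Agilent mouse arrays, which the authors scanned and read with Feature Extraction 10.7.3.1. They deposited the intensity of every spot, background-corrected within the array, and a table of normalized intensities, used as an alternative. Here the intensity was taken to log2, quantile-normalized over 59305 spots that were not controls (limma 3.58.1, R 4.3.3), with outlier spots left out and spots of a probe averaged. limma was fitted to all 55681 probes with the condition as the only term, or with the experiment added, and a probe was called at a B above 0 or a Benjamini-Hochberg adjusted p under 0.05. The code of the fit was run on simulated probes with set changes. That run does not show how well the fit without a block finds changes in these data. Precision is limited by having 4 arrays, and an exact permutation test of 2 against 2 cannot give a p below 0.333. On these arrays 0 spots were saturated.

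A gene was read from its brightest probe. The text gives each array for genes at least 2-fold different in 1 direction in both experiments, the 3 further genes of each role with the largest mean difference among those well above background on all 4 arrays, and up to 5 of each role with the largest difference between experiments that was at least 2-fold in both conditions. Genes at least 2-fold different within 1 experiment were added after the values were seen. The genes and lists were chosen with earlier results of these data known, and 2 genes first placed on the pathway and marker lists are not reported here.

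Replicate numbers are the experiments in the labels, each with its own slide, and pair the samples. Over 25540 measured probes, the siFxr1 and siControl arrays of 1 experiment deviated from their group means together, with a correlation of 0.714. Alternatives were no background correction, normexp (offset 50), scaling of arrays to their 75th percentile, subtraction of the local background, the authors' normalized table, the median over a gene's probes, filters on dim probes, the block, a trend in the variance prior and each array left out.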

Additional observations from a re-analysis of the deposited data

Results flagged for a closer look

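Parp14 and Xaf1 were picked out because the difference between siFxr1 and siControl was at least 2-fold in both experiments and of opposite sign. For Parp14 it was -2.22 in experiment 1, a bound set by the detection limit of that array, and 1.57 in experiment 2 (log2). For Xaf1 it was -1.21 and 1.04. The difference between the experiments was not tested, since each holds 1 array per condition.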

How the results depend on the processing

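With 2 arrays a condition, 1 array can decide a value, and signals not well above background limit 19 of the 39 genes. The count of genes lower in experiment 1 and higher in experiment 2 was 14 to 17 under the other ways of processing all genes and 11 among those well above background on all 4 arrays. Leaving out 1 array in turn gave median differences between siFxr1 and siControl of -0.90 to 0.75, between the experiments of 0.39 to 1.33, and 0 member probes called by limma for the siRNA each time. Comparing the experiments with an array left out, a fit with both terms has no residual degree of freedom, and with the experiment as the only term (chosen after seeing the data) 0 to 2 member probes were called, against 0.00359% to 0.914% of all probes, the 2 without siControl of experiment 2. The replicate block alone called 0 member probes for the siRNA. With the filter on dim probes it called 2 at a B above 0 (1.39% of all probes) and 1 at an adjusted p under 0.05 (1.1%). With the trend too it called 2 at a B above 0 (2.52%) and 3 at an adjusted p under 0.05 (5.6%). Between the experiments, limma called 17 of 48 probes after scaling to the 75th percentile (10.5% of all probes, with the median of all genes at -0.19 against -0.07), 6 with normexp (8.03%), 7 without background correction (9.14%), 11 with the local background subtracted (6.62%) and 9 in the authors' table (9.79%), against 0 (1.19%). Of 28 probes it called 7 with the filter (17%) and 11 with filter and trend (25.7%). The 7 passed by adjusted p, while 0 passed a B above 0 (5.03%). The cause was not tested. Counts of genes at least 2-fold higher in experiment 2 in both conditions were 3, against 5, with the 75th percentile, normexp, no background correction and the authors' table. Genes higher in siFxr1 in both experiments were 1, against 2, without background correction, with the local background subtracted and in the authors' table. With the median over probes, 1 gene (Isg15) was at least 2-fold higher in both experiments, against 0, and 1 (Ifit2) lower, against 2. With the local background subtracted, 8 genes, against 5, were at least 2-fold lower in experiment 1. With only genes well above background on all 4 arrays, 5 genes, against 15, were at least 2-fold higher in experiment 2. Leaving out 1 array turned the sign of 7 gene differences (siFxr1 minus siControl). Between the arrays left out, they ran from -1.11 (without siFxr1 of experiment 2) to 3.09 for Isg15, from -0.91 to 2.84 for Ifit3, from -0.21 to 1.25 for Irf9 and from -0.35 to 0.73 for Ddx58, in each case with siFxr1 of experiment 2 or of experiment 1 left out. They ran from -1.12 to 0.030 for Eif2ak2 and from -0.44 to 0.020 for B2m with the same 2 arrays, and from -1.09 to 0.16 for Trim25 without siControl of experiment 2 or of experiment 1. With the median over its probes Ddx58 was at -0.43. Without the condition as a term, the comparison of the experiments called 0 probes.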
